A study of Mus musculus with 27 samples.

Results

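The mitosis and chromosome segregation genes described here are 41 genes taken by symbol from the 54532 gene rows of a count table of mouse thyroid, and all 41 were found. They cover the kinases and cyclins that start mitosis, condensins, centromere and kinetochore proteins, the spindle checkpoint, spindle motors and the cytokinesis apparatus. The study compared 3 groups of 9 libraries: proliferative lesions (PL) of radiation-exposed mice, normal tissue (NT) that lay beside the lesions of the same exposed mice, and normal control tissue (NCT) from mice that were not exposed. PL and NT are therefore 9 pairs from 9 mice, while NCT came from 9 other mice, and each group had 6 females and 3 males. The radiation dose and type, the mouse strain, genotype and age, and the time after exposure do not appear in the labels. Tissue was cut from thyroid sections by laser capture microdissection, and QuantSeq libraries, which read the 3′ ends of polyadenylated RNA, gave read counts per gene.

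Mitosis is driven by Cdk1 with its B-type cyclins, which trigger chromosome condensation and spindle assembly. The spindle checkpoint then holds the anaphase-promoting complex (APC/C), a ubiquitin ligase, inactive until kinetochores are attached to microtubules, after which sister chromatids part and the cell divides. Most of these genes are transcribed only late in the cell cycle, under a repressor complex named DREAM in resting cells and the MuvB, B-Myb and Foxm1 proteins in cycling cells, so their RNA is widely read as a mark of dividing cells. The adult thyroid follicle is a slowly renewing epithelium in which few cells divide.

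Libraries held 2923851 to 14148601 counts, with medians of 6479022 in PL, 7220957 in NT and 4622595 in NCT. Levels are given in CPM, counts scaled to a common library size with trimmed mean of M values (TMM) factors. A floor of 3 counts corresponded to 0.199 to 1.35 CPM. The thyroid label held in every library, with Tg, the thyroglobulin gene, at 9690 to 33500 CPM in PL, 12600 to 39000 CPM in NT and 26300 to 60400 CPM in NCT. Some libraries stood apart. Pth, the parathyroid hormone gene, exceeded 2000 CPM in PL replicate 2 (27600 CPM), NT replicates 7 (18100 CPM) and 9 (25800 CPM) and NCT replicates 5 (4470 CPM) and 8 (2420 CPM). NCT replicate 9 held 9910 CPM of Lipf, a gastric lipase gene that reached at most 28.9 CPM in PL and NT libraries. The sums, the orders of the means, the role ratios and the counts of called genes are also given without the libraries high in Pth. The labels give NCT replicate 4 a pair of mouse numbers that differ in their leading digits, which touches the fits by mouse number series.

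Promoters of late cell cycle genes are known to carry a cell cycle genes homology region (CHR), bound by MuvB complexes, and CCAAT boxes, bound by NF-Y. RefSeq promoter windows of GRCm38.p6, from 250 bases before to 50 after the transcription start, were matched by symbol for 34 of the 41 genes, in 37 windows. The genes named without a window are Kif20a, Incenp, Smc4, Foxm1, Tpx2, Aurkb and Ccna2. For the CHR the hexamer TTTGAA was searched on both strands, where it appears as such or as its reverse complement. Another known spelling, TTCGAA, is its own reverse complement and counted as a CHR too. The NF-Y box was searched as CCAAT, again on both strands, and a box and a hexamer can share 1 base at most. A CHR hexamer was in 30 of the 37 windows (81.1%), against 6316 of 32851 windows of all genes (19.2%). CCAAT was in 31 of the 37 (83.8%), against 37.4% of all windows, and both kinds were in 28 (75.7%), against 7.52% of all. A match is a description of these letters and not a bound site, and the windows of Prc1, Bub3 and Ect2 count more than once because those genes have more than 1 start.

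The promoters below belong to 5 of the 7 genes that differed between PL and NCT, and are shown to let their CHR and CCAAT layout be compared. Each runs 5′ to 3′ on the gene's strand over the 150 bases before its RefSeq start, with CHR hexamers and CCAAT boxes of either strand in capitals. For Cenpe and Ube2c the gene start in GENCODE lies inside the printed stretch, a little before the RefSeq start. The stretches are chr3:135212413-135212562 (plus strand) for Cenpe, chr2:164769779-164769928 (plus) for Ube2c, chr1:189688087-189688236 (minus) for Cenpf, chr7:135716380-135716529 (minus) for Mki67 and chr11:99024190-99024339 (minus) for Top2a.
Cenpe: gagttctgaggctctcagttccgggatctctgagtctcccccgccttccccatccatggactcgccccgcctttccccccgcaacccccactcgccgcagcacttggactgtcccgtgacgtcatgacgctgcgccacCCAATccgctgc
Ube2c: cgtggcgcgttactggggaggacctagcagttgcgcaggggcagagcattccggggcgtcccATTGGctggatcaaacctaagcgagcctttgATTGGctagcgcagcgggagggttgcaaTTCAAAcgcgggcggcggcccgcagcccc
Cenpf: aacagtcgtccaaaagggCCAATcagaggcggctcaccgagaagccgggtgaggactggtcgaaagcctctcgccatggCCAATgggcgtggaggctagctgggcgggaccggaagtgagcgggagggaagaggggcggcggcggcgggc
Mki67: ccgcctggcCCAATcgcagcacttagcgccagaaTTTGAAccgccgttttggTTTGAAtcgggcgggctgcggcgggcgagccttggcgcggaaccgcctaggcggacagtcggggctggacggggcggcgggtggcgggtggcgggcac
Top2a: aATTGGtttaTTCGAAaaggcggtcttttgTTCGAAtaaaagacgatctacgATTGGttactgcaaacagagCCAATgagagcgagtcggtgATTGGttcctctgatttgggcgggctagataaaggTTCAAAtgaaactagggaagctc
Top2a held 3 CHR hexamers and 4 CCAAT boxes in this stretch, and Mki67 held 2 hexamers and 1 box. Ube2c had 1 hexamer close to the start and 2 boxes before it. Cenpf and Cenpe had boxes only within the stretch, and the Cenpf hexamer lay just after its start.

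**Figure D1:**
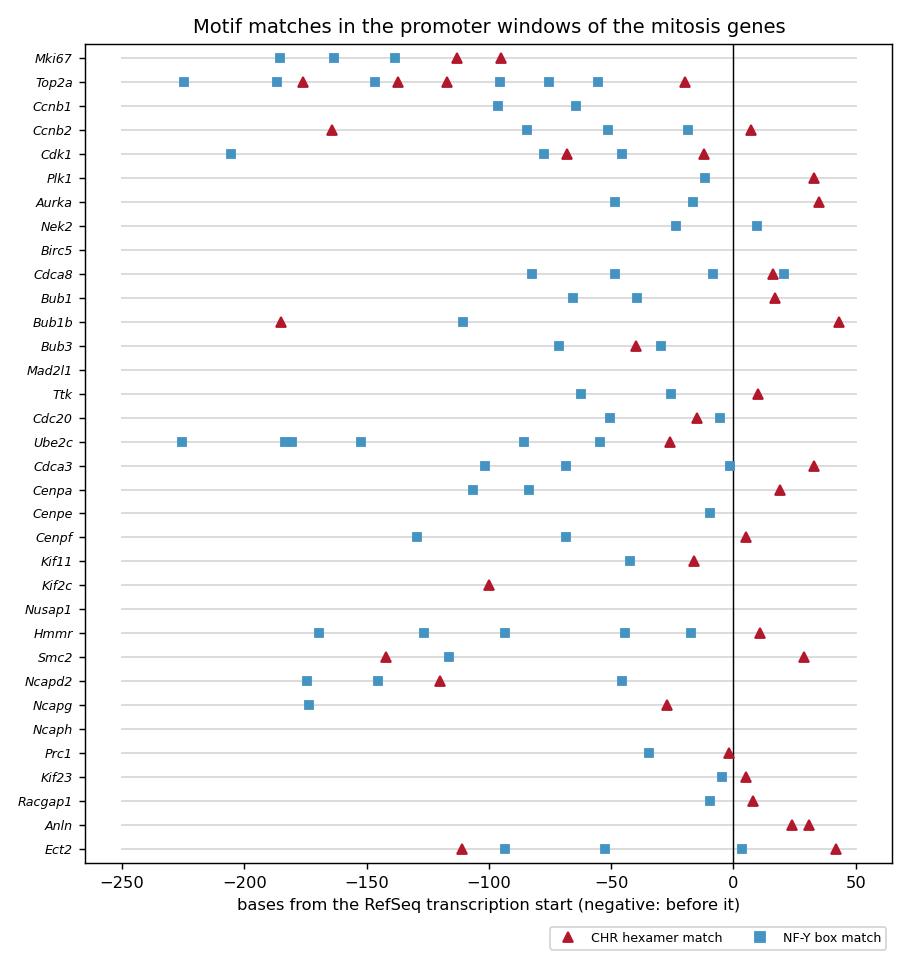
Matches of the CHR hexamers (red triangles) and of the NF-Y box, CCAAT (blue squares), in 1 promoter window for each of the 34 genes with a window, placed by distance in bases from the RefSeq start. Most genes carry boxes before the start and a hexamer close to it, while Birc5, Mad2l1, Nusap1 and Ncaph show no match in the window drawn.

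The first question was whether the lesions carried more mitotic RNA than the tissue beside them and than thyroid of non-exposed mice. The summed level of the 41 genes had a lowest value of 323, a median of 641 and a highest value of 758 CPM in PL. The same sum ran from 301 through a median of 415 to 707 CPM in NT, and from 298 through 369 to 491 CPM in NCT. The 3 ranges overlapped, and 6 of the 9 lesions lay above every NCT library. Their means were 581 ± 155 CPM in PL, 437 ± 123 CPM in NT and 368 ± 57.4 CPM in NCT (SD, n = 9 each). Without the libraries high in Pth the means were 613 CPM in 8 PL, 474 CPM in 7 NT and 377 CPM in 7 NCT libraries. Smc4, Bub3 and Top2a contributed the most counts to this sum. In bulk tissue, fewer cells of a type and less RNA per cell cannot be told apart.

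**Figure D2:**
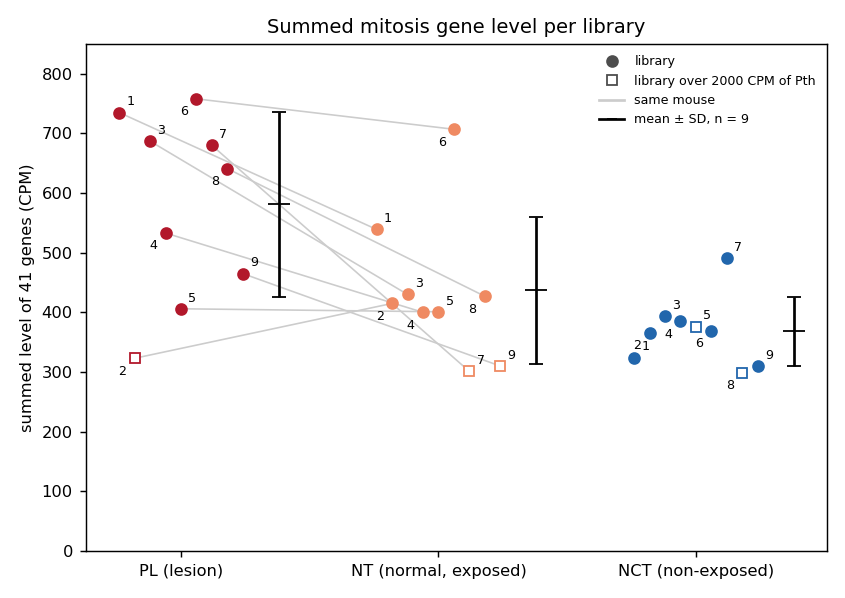
Summed level of the 41 mitosis genes (CPM) in each library of PL, NT and NCT, numbered by replicate, with mean ± SD (n = 9) and grey lines joining PL and NT of 1 mouse; open squares mark libraries over 2000 CPM of Pth. PL reached 758 CPM and spread over the widest range, and the lowest PL library (323 CPM) and both lowest NT libraries were among the squares.

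Gene by gene, the mean level was higher in PL than in NT for 39 of the 41 genes, and higher in PL than in NCT for 40. NT was above NCT for 32 genes, and 30 genes followed the order PL over NT over NCT. Without the libraries high in Pth, PL was above NCT for 40 genes and NT above NCT for 34, and PL was above NT for 37 over the 6 mice with neither library among them. The libraries of both groups overlapped for all 41 genes in each comparison, and over all genes tested 0.118% did not overlap in PL against NT, 0.0623% in NT against NCT and 1% in PL against NCT. Lesions of individual mice, numbered as their PL and NT replicates, differed. In mouse 7, 40 of the 41 genes were higher in PL than in NT, with a summed level of 680 CPM in PL against 301 CPM in NT. In mouse 2 the order was turned, with 9 genes higher in PL and 31 higher in NT, and sums of 323 CPM in PL against 415 CPM in NT. Mice 5 and 6 were close to even, with sums of 406 against 401 CPM and of 758 against 707 CPM in PL and NT. Over all 14461 genes tested, 49 to 51.7% were higher in PL in each mouse. The PL library of mouse 2 and the NT libraries of mice 7 and 9 were those with high Pth. The same NT libraries of mice 7 and 9 also held 6200 and 6250 CPM of airway and squamous epithelium markers (NT median 1010 CPM). The NT library of mouse 8, with 40.7 CPM of Pth, held 5790 CPM of these markers and stays in the fits without high Pth. The part of these tissues in these pairs was not tested.

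**Figure D3:**
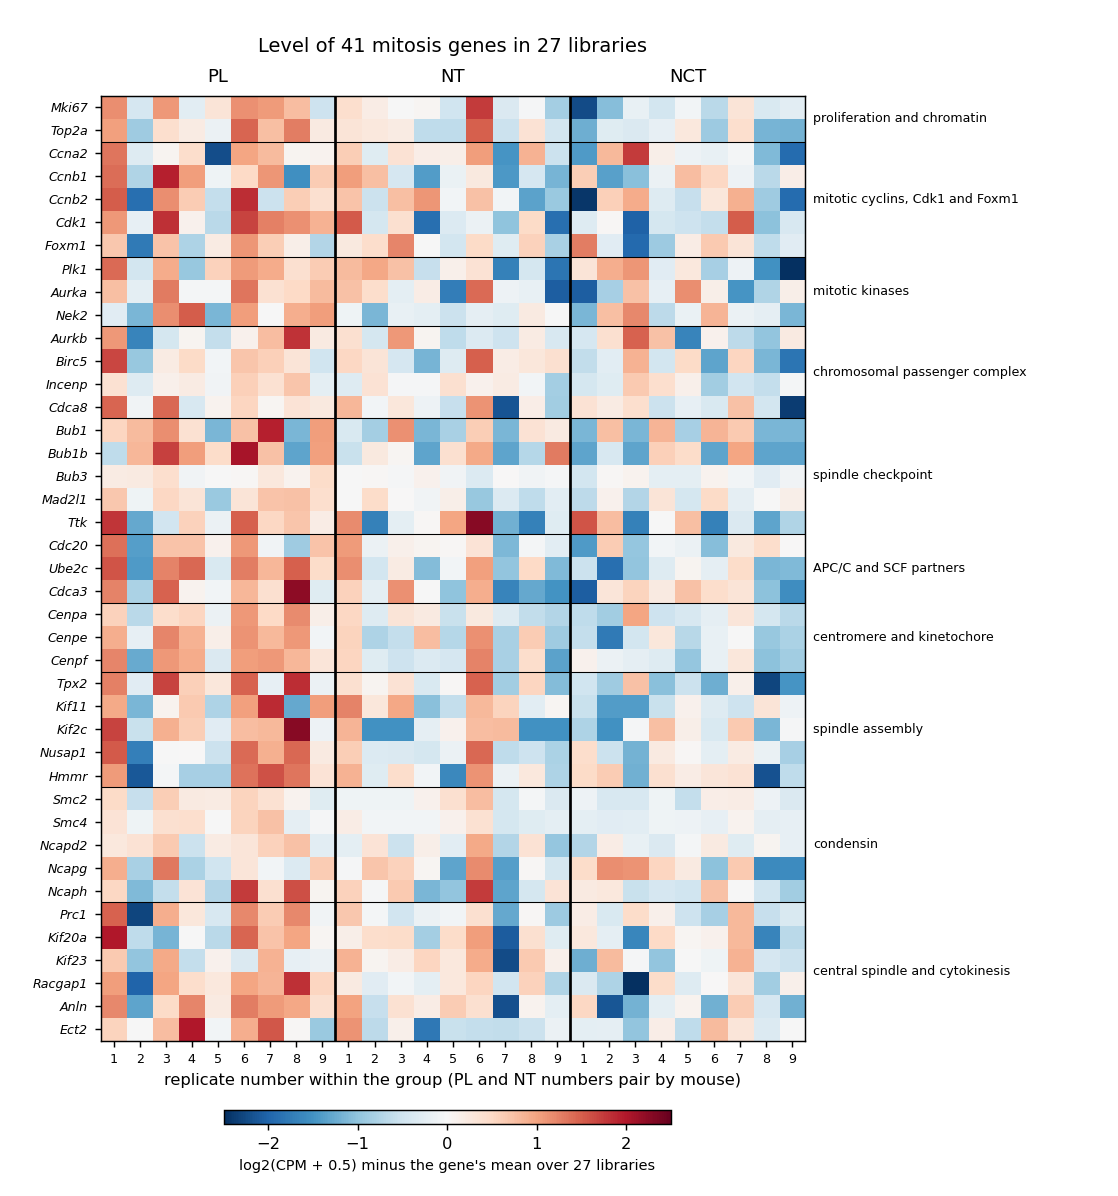
Level of each of the 41 genes in the 27 libraries, as log2(CPM + 0.5) minus the gene's mean over all libraries, with genes grouped by role (rows) and libraries by group and replicate (columns). PL replicates 1, 3 and 6 and NT replicate 6 are red over most rows, and PL replicate 2 and NT replicates 7 and 9 are blue over most rows.

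High and low levels ran through whole libraries. PL replicate 2 was among the 3 lowest lesions for 37 of the 41 genes and PL replicate 5 for 32, while PL replicate 6 was among the 3 highest for 28 and PL replicate 1 for 27. Among NT libraries, replicate 6 was the highest for 19 genes and among the 3 highest for 33, and replicate 7 was among the 3 lowest for 32. NCT replicate 7 was among the 3 highest of its group for 25. Of the lesions, PL replicate 5 held the most red blood cell precursor markers (17400 CPM, PL median 2730) and fibroblast markers (3210 CPM, PL median 1150). NT replicate 3, with 18200 CPM of the red blood cell precursor markers, was among the 3 highest NT libraries for 17 genes. Summed levels of 8 B and plasma cell markers were 3300 CPM in PL replicate 1, 1970 CPM in PL replicate 6 and 7010 CPM in NT replicate 6. In the other libraries that sum ran from 36.4 to 802 CPM in PL and from 49.6 to 1960 CPM in NT, and from 100 to 1640 CPM in NCT. The lowest of these sums, 36.4 CPM, was that of PL replicate 3, which was among the 3 highest lesions for 22 mitosis genes. NCT replicate 7 held 202 CPM of these markers, below the NCT median of 495 CPM. Of these 8 markers, the 5 or 6 with enough counts to be tested gave 0 calls in each comparison (lowest adjusted p of edgeR's quasi-likelihood test 0.487). T and NK cell markers were also highest of their group in PL replicate 1 (66.9 CPM, PL median 25.8) and NT replicate 6 (84 CPM, NT median 31). Macrophage markers were too, at 2650 CPM (PL median 1170) and 2640 CPM (NT median 1620). PL replicate 6 held 29.7 and 1530 CPM of these lists, and PL replicate 3 held the lowest sums of the lesions, 8.72 and 348 CPM. Both lists also gave 0 calls in each comparison. The part of these cell types in the mitosis gene levels was not tested.

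Each comparison was fitted over all genes with edgeR's quasi-likelihood F test and Benjamini-Hochberg adjustment at 0.05. In PL against NT, paired by mouse, 445 of 14461 genes passed (3.08%), 255 of them higher (1.76%) and 190 lower (1.31%). Of the 41 mitosis genes, 37 passed the filter on low counts, and 0 passed the test in either direction. At an unadjusted p under 0.05, 11 were higher and 0 lower, against 8.89% higher and 8.76% lower among all genes tested (17.6% in all), and the Wald test of DESeq2 called 3 of the 37 (Cdk1, Cenpe and Tpx2) and 1274 of all 14461 genes (8.81%). The fitted median was 0.53 on the log2 scale, against 0.00 over all genes tested, as a description of genes that passed the filter. Without the libraries high in Pth 0 mitosis genes and 95 genes in all passed, and the median was 0.51. Nek2, Aurkb, Bub1 and Bub1b had too few counts to be tested.

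In PL against NCT, 1433 of 14234 genes passed (10.1%), 776 of them higher (5.45%) and 657 lower (4.62%). Of the 32 mitosis genes that could be tested, 7 rose in PL and 0 fell: Cenpe, Ube2c, Tpx2, Cenpf, Mki67, Smc4 and Top2a. DESeq2's Wald test called 10 of the 32, again none lower, and 13.1% of all genes. An unadjusted p under 0.05 was reached by 15 genes, all higher, against 12.3% higher and 11.2% lower among all genes tested (23.6% in all). The median was 0.68 on the log2 scale, against 0.00 over all genes tested. With the mouse number series as a covariate, which separates animals by the leading digits of their numbers, only Cenpe passed among the 41 (adjusted p = 0.0305 by edgeR's quasi-likelihood test) and 464 genes passed in all. In that fit 1 PL and 4 NCT libraries share a series with no library of the other group, so that 8 PL and 5 NCT libraries carry the comparison. The median there was 0.70, and the log2 fold changes of the genes no longer called were 1.82 for Tpx2, 1.27 for Cenpf, 1.21 for Ube2c, 0.90 for Top2a, 0.71 for Mki67 and 0.39 for Smc4. With the other mouse number that the labels give NCT replicate 4, Cenpe, Cenpf and Tpx2 passed (adjusted p of 0.0209, 0.0213 and 0.0239 by that test), with 700 genes in all. Leaving out single libraries moved the count between 4 (without NCT replicate 2, with 1126 genes called in all) and 11 (without PL replicate 2, with 1468). Without the libraries high in Pth all 7 passed, with 1136 genes in all.

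In NT against NCT, 4 of 14447 genes passed (0.0277%), 1 of them higher (0.00692%) and 3 lower (0.0208%). Of the 33 mitosis genes tested 0 passed, with edgeR and likewise with DESeq2, which called 133 of all genes (0.921%). Mki67, Tpx2 and Kif11 had an unadjusted p under 0.05 and were higher in NT, against 5.6% higher and 5.98% lower among all genes tested (11.6% in all). The median was 0.20 on the log2 scale, against 0.01 over all genes tested. Without the libraries high in Pth 0 mitosis genes and 0 genes in all passed by edgeR's test, and the median was 0.31. The comparisons PL against NT and PL against NCT share the PL libraries, and those with NCT share the NCT libraries.

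**Figure D4:**
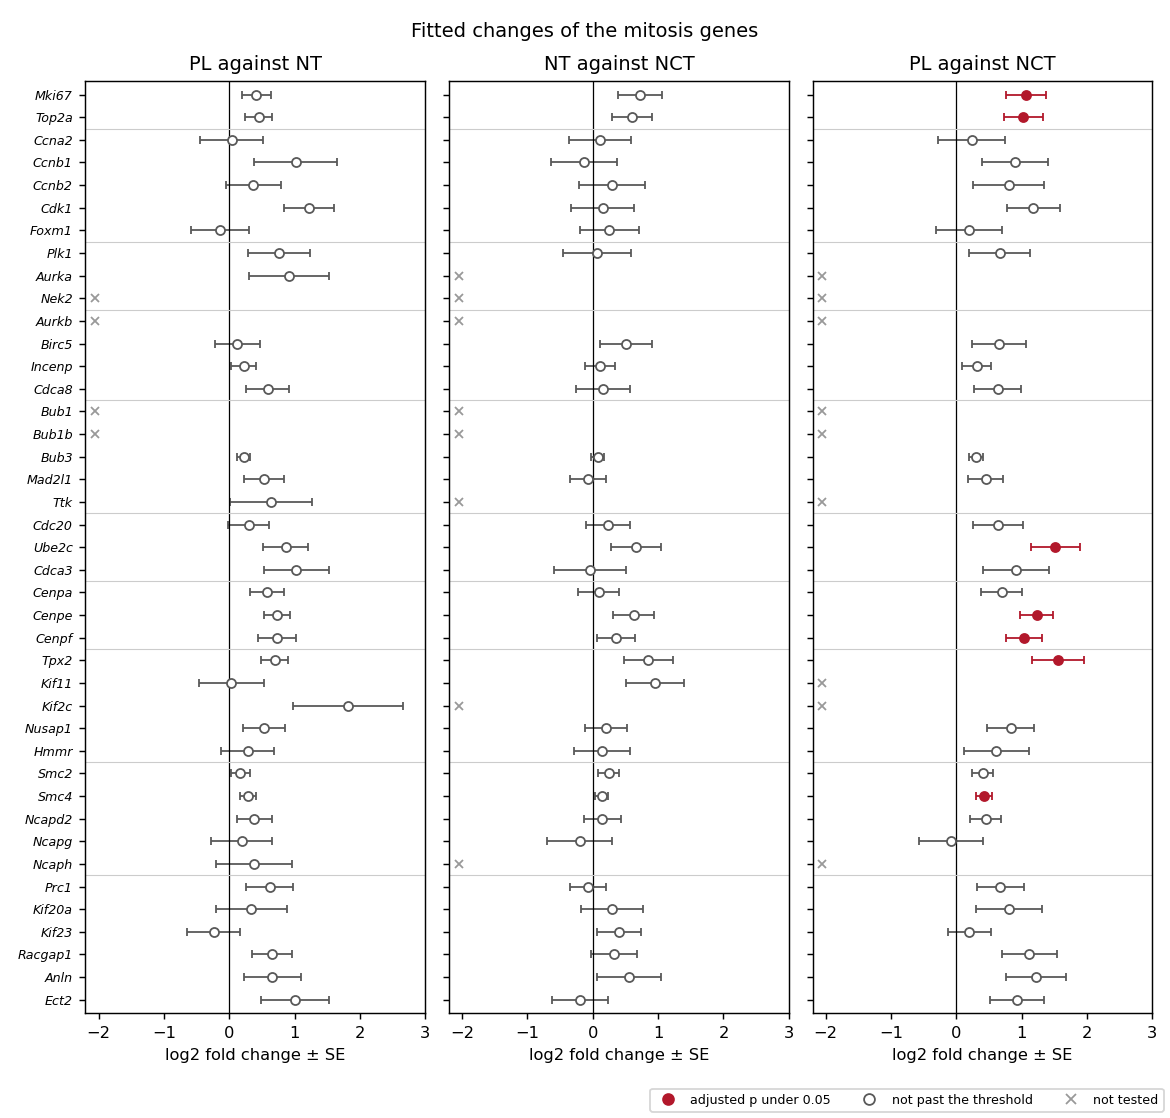
Fitted log2 fold change ± SE of each mitosis gene in PL against NT, NT against NCT and PL against NCT, with genes in role order; filled red points passed an adjusted p of 0.05, open points did not, and crosses mark genes with too few counts to test. The 7 red points all lie in the PL against NCT panel, between 0.43 and 1.55.

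Beside these differences, markers of other tissues also differed between the groups. Among C cell markers, 4 of 6 tested were lower in PL than in NT and 4 of 6 lower in PL than in NCT, and their summed level was 77.2 to 18400 CPM in PL, 449 to 16900 CPM in NT and 1350 to 8470 CPM in NCT. Chga, which is on the parathyroid list too, makes up the top of these ranges in PL and NT, with 18300 CPM in 1 PL and 14900 CPM in 1 NT library. Without Chga the sum was 51 to 377 CPM in PL, 351 to 5720 CPM in NT and 765 to 7350 CPM in NCT. Calca, the calcitonin gene, averaged 85.3 CPM in PL, 1880 CPM in NT and 3650 CPM in NCT. Airway and squamous epithelium markers were lower in PL for 4 of 8 tested against NT and for 4 of 6 against NCT, at 37.9 to 465 CPM in PL, 120 to 6250 CPM in NT and 339 to 5260 CPM in NCT. Fibroblast markers were lower in PL than in NCT for 3 of 7, at 580 to 3210 CPM in PL and 1830 to 3050 CPM in NCT. Adipocyte markers passed in 0 of 8 tests against NCT and summed to 123 to 1520 CPM in PL, 354 to 1060 CPM in NT and 613 to 5550 CPM in NCT. The part of these tissues in the mitosis gene differences was not tested.

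Mki67 and Top2a are the proliferation marks of the list. Mki67, which encodes the Ki-67 protein that coats mitotic chromosomes, lies at chr7:135689784-135716361 on the minus strand (GRCm38). It had a lowest, median and highest level of 10.1, 25.3 and 33.3 CPM in PL, of 7.88, 14.5 and 50.3 CPM in NT and of 2.73, 11.1 and 18.4 CPM in NCT. NT replicate 6 alone held 50.3 CPM, above every lesion, and the other NT libraries reached 19.9 CPM. Mki67 rose in PL against NCT, at 22.9 ± 10.1 CPM in PL and 10.8 ± 4.45 CPM in NCT (SD, n = 9), with a log2 fold change of 1.07 ± 0.30 (SE) and an adjusted p of 0.0253 in edgeR's quasi-likelihood test. Against NT (17.8 ± 12.7 CPM) the log2 fold change was 0.42 ± 0.23 with an adjusted p of 0.363, and PL was higher in 6 of 9 mice. In NT against NCT it was 0.72 ± 0.33 with an adjusted p of 0.41, and 0.35 without NT replicate 6.

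Top2a encodes topoisomerase II alpha, which untangles sister DNA molecules, and lies at chr11:98992943-99024189 on the minus strand. Its level was 17.7 at the lowest, 44.6 at the median and 92.5 CPM at the highest in PL, against 21.2, 38.3 and 94.1 CPM in NT and 14, 25.9 and 44.4 CPM in NCT. In NT, replicate 6 held 94.1 CPM and the next library 42.6 CPM, and the other groups overlapped. Top2a rose in PL (51.9 ± 24.6 CPM) against NCT (25.2 ± 11.3 CPM), with a log2 fold change of 1.02 ± 0.30 and an adjusted p of 0.0318 by edgeR's quasi-likelihood test. That call was lost in 9 of the 18 fits that left out a single library, among them the fits without PL replicates 1, 6 and 8. Against NT (38.4 ± 22.8 CPM) the log2 fold change was 0.45 ± 0.20 (adjusted p = 0.258), and 0.63 without mouse 2 (adjusted p = 0.0444). In NT against NCT it was 0.61 ± 0.30 (adjusted p = 0.454), and 0.31 without NT replicate 6.

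Among the 5 cyclins and other regulators of mitotic entry, 0 passed edgeR's test in any comparison, and DESeq2's Wald test called Cdk1 in PL against NT and in PL against NCT. Cdk1, the kinase that drives entry into mitosis (chr10:69335146-69352938, minus strand), ran from 3.67 through a median of 13.5 to 23 CPM in PL. Its NT libraries ran from 1.29 through 4.75 to 18.8 CPM and its NCT libraries from 1.13 through 4.39 to 18.4 CPM. Apart from NT replicate 1 and NCT replicate 7, which held those highest values, no NT library exceeded 8.7 CPM and no NCT library 6.31 CPM, while 6 lesions were above 10 CPM. Means were 12.7 ± 6.70 CPM in PL, 6.19 ± 5.42 CPM in NT and 5.58 ± 5 CPM in NCT. The log2 fold change was 1.22 ± 0.38 in PL against NT (adjusted p = 0.0974 in edgeR's quasi-likelihood test, 0.0109 in DESeq2's Wald test), with PL higher in 7 of 9 mice. In PL against NCT it was 1.18 ± 0.41 (adjusted p = 0.0707 in edgeR's test, 0.0312 in DESeq2's), and 1.66 with an adjusted p of 0.00473 without NCT replicate 7.

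The cyclins that pair with Cdk1 had lower counts. Ccnb1 averaged 3.72 CPM in PL, 1.81 CPM in NT and 1.97 CPM in NCT, and Ccnb2 averaged 5.40, 3.78 and 3.09 CPM in the same groups. Ccna2, which also acts in S phase, averaged 4.21, 3.83 and 3.54 CPM in PL, NT and NCT. Foxm1, the transcription factor of late cell cycle genes (chr6:128362967-128376146, plus strand), had 0.316, 2.72 and 5.5 CPM as its lowest, median and highest level in PL, against 1.1, 2.79 and 6.04 CPM in NT and 0.227, 1.8 and 6.31 CPM in NCT. The 3 groups of Foxm1 values covered much the same range. Its log2 fold change was -0.14 ± 0.44 in PL against NT (adjusted p = 0.909 by edgeR's quasi-likelihood test), and 0.14 without mouse 2. Other genes on the same strand overlap its last 1000 bases, so reads assigned to Foxm1 are uncertain.

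The mitotic kinases Plk1, which matures centrosomes, and Aurka, which acts at spindle poles, averaged 5.06 and 2.71 CPM in PL, 3.30 and 1.81 CPM in NT, and 3.13 and 1.51 CPM in NCT. Neither passed the test where it was tested. Nek2, a kinase of centrosome separation (chr1:191821444-191833050, plus strand), had the lowest mean level of the 41. It had 0, 1.56 and 2.65 CPM as lowest, median and highest level in PL, 0, 0.445 and 0.791 CPM in NT and 0, 0.486 and 2.04 CPM in NCT. It had 0 counts in 2 PL libraries, where the exact Clopper-Pearson upper limit was 0.502 and 0.583 CPM, and 24 counts at most in any library. Such counts could not carry a comparison.

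The chromosomal passenger complex corrects wrong microtubule attachments. Its scaffold Incenp averaged 13.2 ± 3.30 CPM in PL, 11.4 ± 2.80 CPM in NT and 10.5 ± 3.95 CPM in NCT. Birc5, which encodes survivin, averaged 6.29, 5.67 and 3.92 CPM, and Cdca8, which encodes borealin, 6.68, 4.75 and 4.25 CPM in PL, NT and NCT. Aurkb, its kinase, averaged 1.65, 1.12 and 1.28 CPM and was not tested. Of the 3 tested members 0 passed in each comparison, with log2 fold changes of 0.13 to 0.59 in PL against NT.

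The spindle checkpoint delays anaphase. Bub3, a checkpoint adaptor, held steady levels across libraries, at 76.8 ± 10.1 CPM in PL, 65.1 ± 5.43 CPM in NT and 62.0 ± 8.06 CPM in NCT. PL was higher than NT in 8 of 9 mice, and the log2 fold change was 0.23 ± 0.10 against NT (adjusted p = 0.243) and 0.30 ± 0.11 against NCT (adjusted p = 0.0838), both by edgeR's quasi-likelihood test. Fitted with all 27 libraries, the comparison with NCT gave 0.31 with an adjusted p of 0.0347. Mad2l1, which encodes the MAD2 protein that inhibits Cdc20, averaged 7.41, 5.08 and 5.38 CPM in PL, NT and NCT. The kinases Ttk and Bub1 and the pseudokinase gene Bub1b lay under 2 CPM on average in all groups, and Bub1b had 0 counts in 1 PL, 2 NT and 5 NCT libraries.

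The APC/C and SCF partners mark mitotic proteins for destruction. Ube2c, the ubiquitin-conjugating enzyme of the APC/C (chr2:164769898-164778822, plus strand), had 2.06, 15.8 and 19.9 CPM as lowest, median and highest level in PL. The same values were 2.69, 6.04 and 14.8 CPM in NT and 1.35, 4.26 and 8.93 CPM in NCT. PL replicates 2 and 5 were low, and 6 lesions were above every NCT library. Ube2c rose in PL (12.9 ± 6.44 CPM) against NCT (4.43 ± 2.36 CPM) with a log2 fold change of 1.52 ± 0.38 and an adjusted p of 0.0112 by edgeR's quasi-likelihood test. Against NT (7.08 ± 4.57 CPM) it was 0.86 ± 0.34 (adjusted p = 0.185), with PL higher in 7 of 9 mice. Tnnc2, a muscle troponin gene, lies on the opposite strand at the 3′ end of Ube2c and ran from 0.316 to 80.4 CPM in PL, 0 to 356 CPM in NT and 0.248 to 92.1 CPM in NCT. Cdc20, the APC/C activator, averaged 7.07, 5.31 and 4.51 CPM, and Cdca3, a trigger of mitotic entry, 4.58, 2.30 and 2.36 CPM in PL, NT and NCT.

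Of the 41 genes, Cenpe had the smallest p in PL against NT and in PL against NCT. Cenpe, the kinetochore motor that moves chromosomes to the spindle equator (chr3:135212537-135273611, plus strand), had 12.3, 26.5 and 33.9 CPM as lowest, median and highest level in PL, against 7.48, 9.3 and 31.9 CPM in NT and 3.83, 9.21 and 17.4 CPM in NCT. All 9 lesions were above the median NCT library, and 6 lesions were above every NCT library. In PL against NCT (24.1 ± 8.16 and 10.1 ± 4.03 CPM) Cenpe rose by a log2 fold change of 1.23 ± 0.25, with an adjusted p of 0.00293 by edgeR's quasi-likelihood test. Against NT (15.7 ± 9.34 CPM) it was 0.73 ± 0.20, with an adjusted p of 0.062 and PL higher in 8 of 9 mice. That p was 0.049 without mouse 6 and 0.0144 with DESeq2's Wald test.

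Cenpf, a large coiled-coil protein of the outer kinetochore (chr1:189640606-189688086, minus strand), had 5.38, 26.3 and 32.1 CPM as lowest, median and highest level in PL. In NT these were 5.09, 10.6 and 32.8 CPM, and in NCT 6.42, 11.6 and 16.6 CPM. PL replicate 2 was below every NCT library, and 7 lesions were above all of them. Cenpf rose in PL (22.5 ± 9.42 CPM) against NCT (10.9 ± 3.57 CPM), with a log2 fold change of 1.04 ± 0.28 and an adjusted p of 0.0182 by edgeR's quasi-likelihood test. Against NT (13.9 ± 8.6 CPM) it was 0.73 ± 0.29 (adjusted p = 0.187). Cenpa, the histone H3 variant that marks centromeres, averaged 7.75 ± 3.06 CPM in PL, 5.04 ± 1.78 CPM in NT and 4.74 ± 2.66 CPM in NCT, with PL higher in 8 of 9 mice and no call.

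Among the spindle assembly genes, Tpx2, which activates Aurora A on microtubules (chr2:152847964-152895321, plus strand), had 6.8, 12.9 and 31.1 CPM as lowest, median and highest level in PL. Its NT libraries had 3.69, 8.79 and 23.9 CPM and its NCT libraries 1.31, 4.28 and 14.1 CPM. Of the lesions, 5 held 6.8 to 12.9 CPM and 4 held 20.7 to 31.1 CPM, and the groups overlapped. Tpx2 rose in PL (16.5 ± 9.56 CPM) against NCT (5.55 ± 3.90 CPM), with a log2 fold change of 1.55 ± 0.40 and an adjusted p of 0.0138 by edgeR's quasi-likelihood test. The adjusted p was 0.0508 without NCT replicate 9 and the libraries high in Pth. Against NT (9.99 ± 6.02 CPM) it was 0.70 ± 0.21 (adjusted p = 0.0826), with PL higher in 8 of 9 mice, and in NT against NCT 0.85 ± 0.38 (adjusted p = 0.393).

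The motor Kif11, which pushes spindle poles apart, averaged 3.31 CPM in PL, 2.77 CPM in NT and 1.40 CPM in NCT. Kif2c, a microtubule depolymerase, averaged 2.25, 0.861 and 0.846 CPM and had 0 counts in 4 NT libraries. Nusap1 and Hmmr, which bind spindle microtubules, averaged 11 and 6.01 CPM in PL, 7.08 and 4.30 CPM in NT and 6.08 and 3.86 CPM in NCT. None of these passed where it was tested. Kif11 and Kif2c had too few counts to be tested in PL against NCT, and Kif2c also in NT against NCT. Whether the PL to NT change differed between female and male mice was tested as an interaction, in which 0 of 14461 genes passed and 401 (2.77%) had an unadjusted p under 0.05. Among the 37 mitosis genes tested the latter held for Kif2c alone (adjusted p = 1 by edgeR's quasi-likelihood test).

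Condensin winds mitotic chromosomes into compact rods. Smc4, an ATPase shared by condensin I and II (chr3:69004738-69034623, plus strand), had the highest mean level of the 41. It had 91.6, 137 and 180 CPM as lowest, median and highest level in PL, 79.5, 102 and 140 CPM in NT and 88.6, 93.3 and 115 CPM in NCT. The NCT libraries lay close together, and 5 lesions were above all of them. Smc4 rose in PL (129 ± 30.1 CPM) against NCT (95.4 ± 8.14 CPM), the smallest change among the 7 calls, with a log2 fold change of 0.43 ± 0.12 and an adjusted p of 0.0291 by edgeR's quasi-likelihood test. The call was lost without PL replicate 6, PL replicate 7 or NCT replicate 2 (adjusted p of 0.0528 to 0.0599), and without NCT replicate 9 together with the libraries high in Pth (0.0677). Against NT (105 ± 18.8 CPM) it was 0.28 ± 0.12 (adjusted p = 0.234).

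Smc2, the other condensin ATPase, averaged 42.4 ± 10.7 CPM in PL, 37.6 ± 11.1 CPM in NT and 31.9 ± 6.01 CPM in NCT, with an adjusted p of 0.113 by edgeR's test in PL against NCT, and 0.0355 with females only. Of the condensin I subunits, Ncapd2 averaged 7.88, 6.32 and 5.72 CPM and Ncaph 2.06, 1.58 and 1.12 CPM in PL, NT and NCT. Ncapg (chr5:45669919-45700546, plus strand) had 1.11, 2.19 and 6.58 CPM as lowest, median and highest level in PL, 0.595, 2.37 and 5.94 CPM in NT and 0.438, 3.41 and 5.86 CPM in NCT. It was the only gene of the list with a mean in PL below that in NCT, at 2.88 ± 1.89 CPM in PL and 3.01 ± 2.07 CPM in NCT, and the log2 fold change of -0.08 ± 0.49 (adjusted p = 0.95) changed sign when single libraries were left out.

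The central spindle and cytokinesis genes act last. Prc1, which bundles antiparallel microtubules, averaged 14.1 ± 7.89 CPM in PL, 8.32 ± 3.50 CPM in NT and 8.75 ± 3.73 CPM in NCT. Racgap1, of the centralspindlin complex, averaged 11.7 ± 6.26, 6.72 ± 2.23 and 5.37 ± 2.76 CPM, and Anln, an actin-binding scaffold of the contractile ring, 4.98 ± 2.18, 3.10 ± 1.66 and 2.05 ± 1.5 CPM. In PL against NCT their adjusted p was 0.273 for Prc1, 0.0977 for Racgap1 and 0.0917 for Anln by edgeR's quasi-likelihood test. DESeq2's Wald test called Racgap1 (0.0491) and Anln (0.0467), and edgeR's test called Racgap1 when all 27 libraries were fitted together (0.0483). Kif20a, a central spindle motor, averaged 4.14, 2.87 and 2.33 CPM in PL, NT and NCT.

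Ect2, the exchange factor that activates RhoA for cleavage (chr3:27097222-27153878, minus strand), had 1.18, 4.23 and 12.3 CPM as lowest, median and highest level in PL, 0.429, 1.67 and 6.45 CPM in NT and 1.13, 2.25 and 5.07 CPM in NCT. PL replicate 4 held the highest value and NT replicate 1 stood above the other NT libraries, which reached 2.99 CPM. The log2 fold change was 1.004 ± 0.518 in PL against NT (adjusted p = 0.339), and -0.20 ± 0.43 in NT against NCT (adjusted p = 0.895). Kif23, the motor partner of Racgap1 (chr9:61915905-61946774, minus strand), had 3.48, 6.7 and 14.8 CPM as lowest, median and highest level in PL. In NT these were 1.19, 8.99 and 14.5 CPM and in NCT 2.9, 6.86 and 13.9 CPM. It was higher in PL in only 2 of 9 mice, with means of 8.40 ± 4.12 CPM in PL and 9.56 ± 4 CPM in NT and a log2 fold change of -0.24 ± 0.40 (adjusted p = 0.811 by edgeR's quasi-likelihood test).

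**Figure D5:**
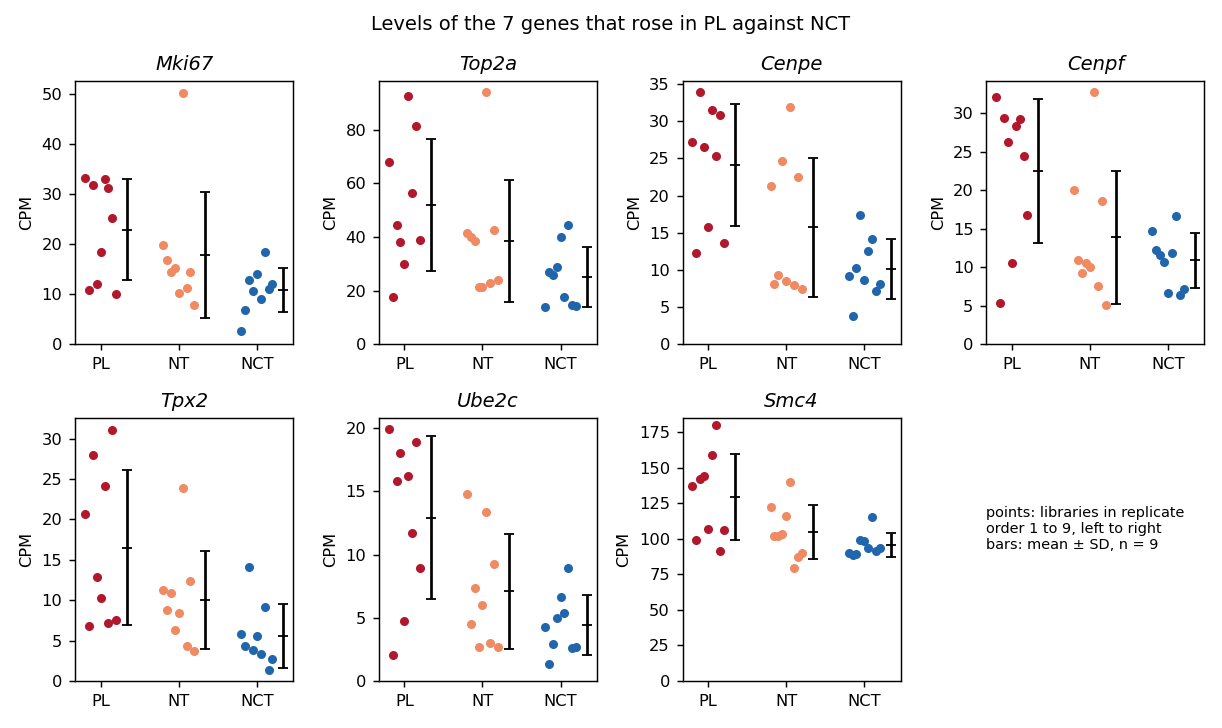
Level (CPM) of the 7 genes that rose in PL against NCT, in each library of PL, NT and NCT, with mean ± SD (n = 9). The groups overlap for every gene, NT lies between PL and NCT on average, and the highest NT point is replicate 6 for Mki67, Top2a, Cenpe, Cenpf, Tpx2 and Smc4.

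Summed by role, PL was 2.20 times NCT for the spindle assembly genes (39.1 ± 20.1 CPM in PL and 17.7 ± 4.89 CPM in NCT), 2.17 times for the APC/C and SCF partners, 2.11 times for the centromere genes and 2.08 times for Mki67 with Top2a. It was 1.28 times for the checkpoint genes and 1.35 times for condensin, whose sums are carried by Bub3 and by Smc2 and Smc4. Against NT the ratios ran from 1.21 for condensin to 1.67 for the APC/C and SCF partners, and PL was higher in 6 to 8 of the 9 mice. NT was 1.03 to 1.56 times NCT. Without the libraries high in Pth PL was 1.25 to 2.49 times NCT and NT 1.02 to 1.80 times NCT, and over the 6 mice with neither library among them PL was 1.15 to 1.63 times NT. These ratios are of levels averaged over 9 libraries and were not tested.

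A further 124 genes of mitosis were taken as lists. Of 107 tested in PL against NT, 3 rose and 0 fell, with a median of 0.11 on the log2 scale, and of 95 tested in PL against NCT 4 rose and 0 fell, with a median of 0.10. In NT against NCT 0 of 97 passed. Among all genes tested, 1.76% rose and 1.31% fell in PL against NT, and 5.45% rose and 4.62% fell in PL against NCT. The counts of the further genes are near these shares. Arhgap11a, a RhoA regulator of cytokinesis, rose with log2 fold changes of 1.17 ± 0.29 against NT (adjusted p = 0.0436 by edgeR's quasi-likelihood test) and 1.47 ± 0.29 against NCT (0.00192). Stmn1, which destabilizes microtubules, rose by 0.63 ± 0.16 and 0.80 ± 0.21 in the same comparisons (adjusted p of 0.0426 and 0.0157 by that test). Cdca7 rose by 0.95 ± 0.22 and 0.90 ± 0.27 (0.03 and 0.0357), and Kif18a, a motor that limits microtubule length, rose by 1.24 ± 0.34 against NCT (0.023). Of the 36 other kinetochore genes, 29 were tested in PL against NT, 24 in NT against NCT and 23 in PL against NCT, and 0 passed. The rest of them had too few counts to be tested. The 16 APC/C subunits and the 13 cohesin and further condensin genes were all tested and gave 0 calls in all 3 comparisons. Medians of the APC/C subunits were -0.04 in PL against NT and -0.01 in PL against NCT.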

How the data were processed

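RNA of laser-captured thyroid from 27 libraries was extracted with a Qiagen miRNeasy Micro kit and made into Lexogen QuantSeq 3′ libraries, per the labels' protocols. The authors deposited raw read counts per gene, and STAR, featureCounts, DESeq2 and GRCm38 are named per the submitters' processing notes. Not given in the sources used here are their versions, the annotation, the strand setting and the use of molecular identifiers. Of 54532 rows, 54409 were named by the GENCODE M21 annotation, and the others held 0.0251% of counts. Reads of 8 of the genes could mix with another gene that overlaps their last 1000 bases, on the opposite strand only for 7. Genes that lie beyond the 3′ end were not searched.

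Counts were tested with edgeR 4.0.16 in R 4.3.3: TMM factors, filterByExpr with a minimum count of 10, robust quasi-likelihood F test, Benjamini-Hochberg adjustment over all genes tested at 0.05. A fit held no other libraries than those it compared. PL against NT kept the mouse as a block, and the others had no covariate. The SE is the size of the log2 fold change over the square root of F. Levels are CPM with TMM factors over 27 libraries. Intervals and the limits of a count of 0 cover counting error only. On simulated counts the fits recovered 48.3% of genes changed by 1 on the log2 scale and 88.3% of those changed by 2 in PL against NT, 54.5% and 92.6% in NT against NCT, and 54.2% and 95.7% in PL against NCT. The changed genes were drawn at random from all genes that passed the filter. These rates are therefore not those of the mitosis genes, many of which had low counts.

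PL and NT pair by the mouse number in the labels. Deviations from the group means within a pair had correlations between -0.00644 and 0.233 (mean 0.134), above 0.1 in 6 of 9 pairs. None of 108 library pairs within groups agreed within sampling noise (lowest chi-square per degree of freedom 13.2).

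The members, role groups and further lists were chosen with earlier results of these data known. Named with per-library ranges were Mki67, Top2a, Cdk1, every gene past the threshold, the pair with the smallest p in each direction of each comparison, and the highest and lowest by mean level. From the further lists came genes past the threshold and up to 3 per list by smallest p. Alternatives were other scaling factors and filters, DESeq2 1.42.0, single replicates left out, females only, no libraries over 2000 CPM of Pth, no block, sex or number series as covariate and all 27 libraries in a fit. After the data were seen, fits that also left out NCT replicate 9, and series from the other mouse number the labels give NCT replicate 4, were added.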

Additional observations from a re-analysis of the deposited data

Results flagged for a closer look

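A library was singled out where its gap to the nearest other library of its group exceeded Dixon's 95% critical share of the group's range. Of 42 groups of values 9 passed. The critical share is set for about 1 in 20 among independent groups of normally distributed values. These groups share their libraries, and high and low levels ran through whole libraries, so the count of 9 is a description only. NT replicate 6 stood above the other NT libraries for Mki67 (50.3 CPM, next 19.9 CPM), Top2a (94.1 CPM, next 42.6 CPM) and Tpx2 (23.9 CPM, next 12.4 CPM). NT replicate 1 stood above its group for Cdk1 (18.8 CPM, next 8.7 CPM) and Ect2 (6.45 CPM, next 2.99 CPM). NT replicate 7 stood below its group for Kif23 (1.19 CPM, next 7.8 CPM), in a library with 18100 CPM of Pth. NCT replicate 7 stood above its group for Cdk1 (18.4 CPM, next 6.31 CPM), Smc4 (115 CPM, next 99.4 CPM) and the summed level of the 41 genes (491 CPM, next 394 CPM). The lesions held no such library for these genes.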

How the results depend on the processing

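In PL against NT, where 0 mitosis genes passed, the count was 2 with no filter (Cdk1 and Cenpe) and 3 with DESeq2's Wald test (Cdk1, Cenpe and Tpx2), with 832 and 1274 genes called in all against 445. It ran from 0 to 1 when a mouse was left out, with Top2a called without mouse 2 and Cenpe without mouse 6, and 137 to 529 genes called in all. Without the replicate block, 0 mitosis genes and 402 genes in all passed, with a median log2 fold change of 0.52. The interaction with sex also gave 0 calls among the mitosis genes without the block. In PL against NCT, where 7 passed, the count was 1 with the mouse number series as covariate (3 with the other number given for NCT replicate 4), 5 with females only (Mki67, Top2a and Tpx2 lost, Smc2 gained), 5 without NCT replicate 9 and the libraries high in Pth (Tpx2 and Smc4 lost), 6 with no filter (Top2a lost), 9 with all 27 libraries (Bub3 and Racgap1 gained) and 10 with DESeq2's Wald test (Cdk1, Racgap1 and Anln gained). Genes called in all were 464, 700, 450, 797, 1634, 1817 and 1866 in that order, against 1433. The count ran from 4 to 11 when a library was left out. No paired analysis was possible for the comparisons with NCT because their numbers come from different animals. Cenpe, Cenpf, Tpx2 and Ube2c passed in all 18 fits that left out a library, Mki67 in 16, Smc4 in 15 and Top2a in 9. Mki67 was lost without PL replicate 1 or NCT replicate 2 (adjusted p of 0.0531 and 0.0524 in edgeR's quasi-likelihood test). In NT against NCT 0 passed in every fit run. Medians when a library was left out ran from 0.39 to 0.63 in PL against NT, 0.11 to 0.29 in NT against NCT and 0.53 to 0.87 in PL against NCT.

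Directions turned only for genes that did not pass. With females only, log2 fold changes were 0.053 for Kif23 and 0.26 for Foxm1 in PL against NT and 0.10 for Ect2 in NT against NCT. With sex as covariate Ncapg was 0.063 in NT against NCT and 0.21 in PL against NCT, and with the number series 0.61 and 0.52, while Cdk1 was -0.52 in NT against NCT. With the other number of NCT replicate 4 these were 0.40, 0.50 and -0.12. When a library was left out, Foxm1 ran from -0.29 to 0.14 in PL against NT, Cdk1 from -0.25 to 0.63 in NT against NCT and Ncapg from -0.31 to 0.10 in PL against NCT (-0.33 without NCT replicate 9 and the libraries high in Pth). The cause was not tested. Depth limits the genes under 5 CPM, 20 of the 41, for which a few counts decide a library's value.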

Other observations

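Genes of DNA replication, which act in S phase before the mitosis genes, were tested as a list of 37. In PL against NT 0 of 34 passed, in NT against NCT 0 of 32, and in PL against NCT 2 of 31 rose and 0 fell. Among all genes tested in PL against NCT, 5.45% rose and 4.62% fell, so the count of calls in this list is near the share over all genes. At an unadjusted p under 0.05, 10 were higher and 0 lower in PL against NCT, against 12.3% and 11.2% of all genes. The same counts were 6 and 0 in NT against NCT (5.6% and 5.98% of all genes) and 4 and 1 in PL against NT (8.89% and 8.76%). Mcm2, a subunit of the replicative helicase, rose by a log2 fold change of 0.998 ± 0.212 in PL against NCT (adjusted p = 0.00373 by edgeR's quasi-likelihood test), and was at 0.74 ± 0.21 in PL against NT (adjusted p = 0.0715). Prim1, the primase subunit, rose by 1.04 ± 0.25 in PL against NCT (adjusted p = 0.00948 by the same test). The median of the list was 0.13 in PL against NT, 0.30 in NT against NCT and 0.33 in PL against NCT.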
